A study of Mus musculus and Homo sapiens with 12 samples.

Results

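The genes described here are the 3 D-type cyclins (CCND1, CCND2 and CCND3), the 2 kinases they activate (CDK4 and CDK6) and 5 CDK inhibitors (CDKN1A, CDKN1B and CDKN1C of the CIP/KIP family, CDKN2A and CDKN2B of the INK4 family). They were chosen by name, 10 of the 20033 protein-coding genes of the human annotation, and all 10 were also found by name among the 21887 protein-coding genes of mouse. For each gene, the peaks of every library were taken that lay in the gene or within 10 kb of it. The question was where 2 butyryl marks on histones, H3K18bu and H4K12bu, lie at the genes that control entry into the cell cycle.

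D-type cyclins rise when a cell receives growth signals and bind CDK4 or CDK6, and the active kinases phosphorylate the retinoblastoma protein RB1, which releases E2F factors to transcribe genes for DNA replication. INK4 inhibitors bind CDK4 and CDK6 themselves, and CIP/KIP inhibitors bind complexes of cyclin and CDK. Butyrate, a short-chain fatty acid that gut bacteria make from dietary fiber, inhibits histone deacetylases, is a source of butyryl groups for histone lysines, and is known to induce CDKN1A (p21) and to halt the growth of colon cancer cells.

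The data were 12 libraries of CUT&Tag, an assay in which an antibody directs a transposase to cut chromatin beside the histone mark. CCD841 cells, a line derived from healthy human colon epithelium, were treated with 1 mM sodium butyrate for 12 to 16 h, with 2 replicates for each butyryl mark. No untreated CCD841 library was analysed here, so the cell line data show where the marks lay under butyrate and not what butyrate changed. The mouse data were 8 libraries from large intestine of male CETP-ApoB-100 transgenic mice, 2 for each of H3K18bu, H4K12bu, H3K18ac and H4K12ac, where ac stands for acetylation (Kac) and bu for butyrylation (Kbu). All 8 libraries are labelled with a high fat, high sucrose diet, the Kbu libraries with 5% arabinoxylan, a fermentable fiber, added and the Kac libraries without it. The methods instead describe a low fat control group beside a high fat, high sucrose group that later received arabinoxylan, and the titles of the Kac libraries read cnt, so the diet behind the Kac libraries is uncertain. The paper's results can also be read as Kbu and Kac both from mice on arabinoxylan, in which case the Kbu and Kac libraries may come from the same mice. By the labels, acyl group and diet cannot be told apart. The tissue pieces were whole pieces of frozen intestine, and no age is given in the sources used here. The design text gives 2 mice per condition, so the 4 libraries of a diet share mice, and no label ties a library to a mouse. Nothing says whether the CCD841 replicates were separate cultures, and the spread between replicates may be technical.

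The values per peak were the fold over the local background and a pileup, the number of extended read ends stacked at the summit, which was solved from the deposited fold and p. Overlapping peaks of a library were merged to regions, and a region found in both replicates of a mark is called a consensus region. In CCD841 the lists held 211088 and 229104 regions for H3K18bu and 207129 and 282656 for H4K12bu, and gave 108536 and 90476 consensus regions. H4K12bu replicate 2 stood apart from the other CCD841 libraries. Its median pileup was 7, against 15 and 12 for H3K18bu and 15 for H4K12bu replicate 1, and 54.7% of its regions had a q below 0.05, against 100.0% in each of the other 3. The CCD841 lists held 299296 to 299720 peaks, at the limit of 300000 per list, so a place without a region is one not among the listed peaks and may still carry the mark. In mouse, 89.2% to 91.4% of peaks in the 4 Kbu libraries had a pileup of 1, and so did 72.1% and 52.0% in the H3K18ac libraries and 52.8% and 12.8% in the H4K12ac libraries. With a pileup of 1 the exact 95% Poisson interval runs from 0.0253 to 5.57, and with a pileup of 17, as at the CDKN1A start site below, from 9.90 to 27.2. These intervals cover counting error only.

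The starts of 4 inhibitor genes carried H3K18bu in CCD841, and their DNA just before the start site is printed here to show the sequence at the starts, with CCND1 as a gene with none listed at its start. A start site is the first base of the Ensembl canonical transcript. Each sequence is the 120 bases that end 1 base before the start site in GRCh38, 5′ to 3′ on the strand of the gene, and capitals mark GGGCGG or its reverse complement, the GC box that Sp1-family factors bind. The CDKN1A stretch is chr6:36678594-36678713 (plus strand), CDKN1B is chr12:12717248-12717367 (plus), CDKN2A is chr9:21974858-21974977 (minus), CDKN2B is chr9:22009306-22009425 (minus) and CCND1 is chr11:69641036-69641155 (plus).
CDKN1A: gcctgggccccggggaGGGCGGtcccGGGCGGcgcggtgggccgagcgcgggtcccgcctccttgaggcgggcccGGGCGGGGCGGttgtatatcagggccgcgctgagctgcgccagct
CDKN1B: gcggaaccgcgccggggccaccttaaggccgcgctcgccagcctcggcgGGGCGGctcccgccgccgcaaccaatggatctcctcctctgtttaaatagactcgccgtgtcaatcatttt
CDKN2A: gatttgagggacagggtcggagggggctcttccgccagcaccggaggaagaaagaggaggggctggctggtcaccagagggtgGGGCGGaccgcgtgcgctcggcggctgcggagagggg
CDKN2B: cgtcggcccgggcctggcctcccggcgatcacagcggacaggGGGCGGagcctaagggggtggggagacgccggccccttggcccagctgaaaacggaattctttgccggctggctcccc
CCND1: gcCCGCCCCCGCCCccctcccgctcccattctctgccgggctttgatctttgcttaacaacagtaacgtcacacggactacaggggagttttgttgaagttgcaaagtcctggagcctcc

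In CDKN1A the 4 GC boxes began at −104, −94, −45 and −40, counted back from the start site, and the last 2 share 1 base. CDKN1B had 1 box at −71 and CCND1 had 2 adjoining boxes at −118 and −112. Over a longer window, from 250 bases before to 50 bases after the start site, a GC box was found in 9 of the 10 genes (all except CCND2), against 61.3% of 20033 human promoters. TATAAA was found in CDKN1C alone of the 10, against 9.71% of promoters, the E-box CACGTG in CDK4 and CDK6, against 8.76%, and the AP-1 motif TGACTCA in none, against 3.57%. Both strands were searched. GC boxes were thus present in genes with H3K18bu at the start and in genes without it (CDKN1C, CCND1, CCND3, CDK6), and a match of letters is a description of the DNA only.

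In CCD841, H3K18bu lay at every one of the 10 genes and H4K12bu at 5 of them. The share of all protein-coding genes with an H3K18bu consensus region within 10 kb was 75.8%, and for H4K12bu it was 76.6%, so 10 of 10 is above and 5 of 10 below the share of all genes. Within the gene bodies alone, without the flanks, the counts were 9 and 4 of 10, against 60.9% and 62.8% of all genes, since the regions of CDKN1C lay in its flanks. The 10 genes held 50 H3K18bu consensus regions and 35 H4K12bu consensus regions. The median per gene was 3 for H3K18bu, against 2 over all genes, and 1.5 for H4K12bu, against 2. Scaled to the length of the window, the medians were 0.617 regions per 10 kb for H3K18bu, against 0.378 over all genes, and 0.258 for H4K12bu, against 0.456. The 5 genes with both marks were CDKN1A, CDKN1C, CCND1, CCND3 and CDK6. CDKN1B, CDKN2A, CDKN2B, CCND2 and CDK4 had H3K18bu consensus regions and no H4K12bu consensus region, although each H4K12bu library alone listed 1 to 4 regions at each of them. With 2 libraries for each mark, the two-sided exact permutation test cannot give a p below 0.333, so the marks were not tested against each other.

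**Figure D1:**
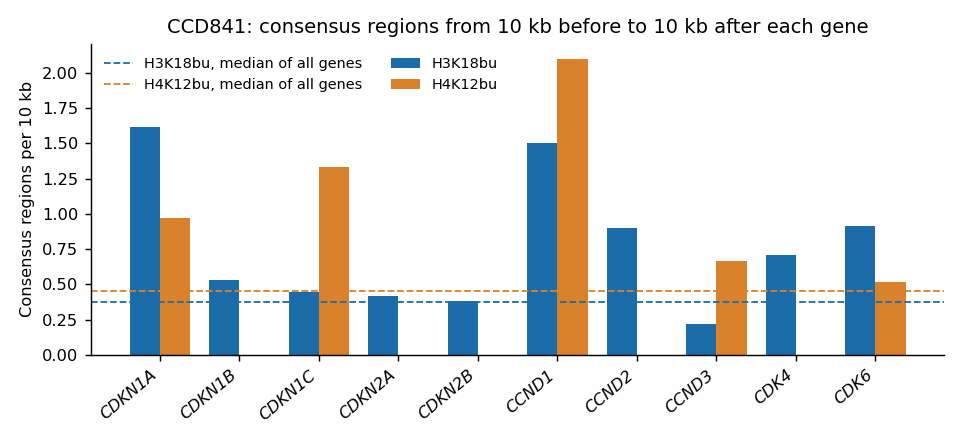
Consensus regions per 10 kb (y axis) in the window of each gene (x axis) for H3K18bu and H4K12bu in CCD841; dashed lines are the medians of all protein-coding genes, 0.378 and 0.456. CCND1 and CDKN1A stand highest for H3K18bu, CCND1 for H4K12bu, and 5 genes have no H4K12bu bar.

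The genes differed in H3K18bu at their start sites. Within 1 kb of the start site, 4 of the 5 inhibitors (CDKN1A, CDKN1B, CDKN2A and CDKN2B) and CDK4 had an H3K18bu consensus region, while none of the 3 cyclins did. This made 5 of the 10 genes, against 32.7% of all protein-coding genes and 48.5% of the 33 other cell cycle genes described below. With 5 inhibitors and 3 cyclins, the difference between the roles was not tested and rests on few genes. At the other 5 genes (CDKN1C, CCND1, CCND2, CCND3 and CDK6) neither H3K18bu library listed any region within 1 kb. The same count of 5 was obtained with either library alone, with 50% of the shorter region as the least overlap, with the same number of strongest regions from every library, within 3 kb, and with the start sites of all protein-coding transcripts.

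H4K12bu had a consensus region at the start of CCND3 alone, 1 of 10 genes against 14.9% of all genes. The pileups at CCND3 were 10 and 6, and the second replicate did not pass a q of 0.05. H4K12bu replicate 1 also listed a region at the start of CDKN1B, with a pileup of 13, and at the start of CDKN2B, with a pileup of 12, and replicate 2 listed 1 at CDK4 with a pileup of 5. These 3 were each listed in 1 of 2 libraries.

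**Figure D2:**
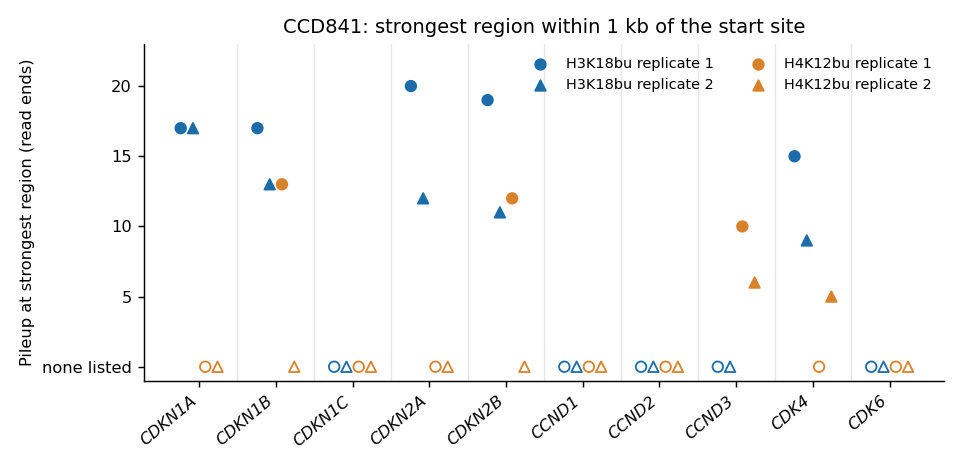
Pileup in read ends (y axis) of the strongest region within 1 kb of the canonical start site of each gene (x axis) in the 4 CCD841 libraries; open symbols on the lowest line mark libraries that list no region there. Both H3K18bu libraries have a region at CDKN1A, CDKN1B, CDKN2A, CDKN2B and CDK4, and H4K12bu has one in both libraries at CCND3 alone.

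CDKN1A (ENSG00000124762, chromosome 6), whose product p21 binds cyclin–CDK complexes and halts the cycle in G1, carried both marks, with H3K18bu alone at the canonical start site. It had 7 H3K18bu regions in each library and 5 consensus regions, 2 of them in the gene itself. Its 1.62 regions per 10 kb exceeded the value of 97.7% of protein-coding genes. At the start site, from −403 to +484, the pileups were 17 and 17 and the folds 3.55 and 3.78, and replicate 1 listed a second region there with a pileup of 16. The region covered 85 bases of the 5′ UTR in exon 1 of 3, and the 4 GC boxes printed above lie inside it. By the lower −log10 p of both replicates, 6.50, this region was above 30.9% of the 6547 genes with H3K18bu at a start site.

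The other H3K18bu regions of CDKN1A lay upstream, at the 3′ end and downstream. The strongest was at chr6:36666931-36667473, from −11783 to −11241, with pileups of 28 and 23, and H4K12bu had a consensus region inside it with pileups of 15 and 7. A second, from −2428 to −2260, lay at an upstream start site of the gene, with pileups of 18 and 18. H4K12bu was listed beside that upstream start in each library, from −2443 to −2306 with a pileup of 12 in replicate 1 and from −2244 to −2062 with 5 in replicate 2, but these regions do not overlap and form no consensus region. A region of 374 bases in the 3′ UTR of exon 3 had H3K18bu pileups of 17 and 19, and chr6:36691467-36691755, downstream of the gene, had 15 and 12. The strongest H4K12bu region of the gene, chr6:36686298-36687153, lay over the same 3′ UTR, with pileups of 43 and 12. Of the 3 H4K12bu consensus regions, 2 thus overlapped H3K18bu consensus regions. H4K12bu was listed in both libraries upstream, in an intron and over the 3′ UTR of CDKN1A, but in neither library within 1 kb of its canonical start site.

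**Figure D3:**
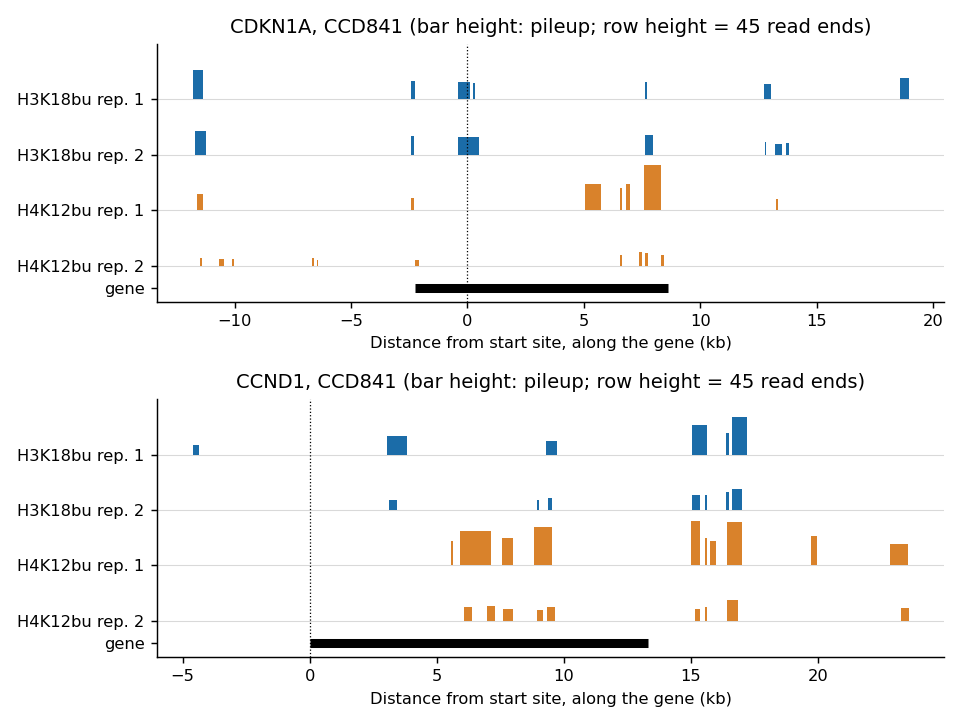
Merged regions at CDKN1A (top) and CCND1 (bottom) in the 4 CCD841 libraries, by distance from the start site in kb along the gene (x axis); the height of a bar is the pileup and the black line is the gene. CDKN1A has H3K18bu across its start site and H4K12bu over its 3′ end, while the regions at CCND1 lie inside and past the gene, except 1 of H3K18bu replicate 1 upstream.

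CDKN1B, which encodes p27, an inhibitor that falls as cells enter the cycle, had 3 H3K18bu consensus regions. The strongest, chr12:12716787-12717364, ended 4 bases before the start site and had pileups of 17 and 13 and folds of 6.36 and 5.99. Its lower −log10 p of 9.72 was above that of 70.3% of genes with H3K18bu at a start site. The other 2 lay between −36415 and −28090 from the canonical start, 1 upstream of CDKN1B and 1 in an intron of its longer transcripts, both also within the overlapping gene GPR19, and had pileups of 13 to 16 in replicate 1 and 9 to 10 in replicate 2.

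CDKN1C, the imprinted gene of p57, was the inhibitor without H3K18bu at its start. Its single H3K18bu consensus region, chr11:2880178-2881343, began 4432 bases past the start site, downstream of the gene. It had pileups of 22 and 24, the fold of 8.002 in replicate 2 was the highest among the 50 regions, and H4K12bu also had a consensus region there with pileups of 13 and 5. The gene's 2 further H4K12bu regions lay between −4713 and −4080.

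The INK4 inhibitors CDKN2A, which encodes p16 and, from another start, ARF, and CDKN2B, which encodes p15, are neighbours on chromosome 9. At the p16 start of CDKN2A, chr9:21974682-21975248 covered 30 bases of 5′ UTR and 146 bases of coding sequence in exon 1 over the span of both replicates. The H3K18bu pileups were 20, in a replicate 1 region from −391 to +135, and 12, in a replicate 2 region from −345 to −128 that lies before exon 1. A second replicate 2 region, from −8 to +175 with a pileup of 11, lay over exon 1. At CDKN2B, chr9:22009153-22009599 covered 153 bases of 5′ UTR with pileups of 19 and 11. Of the genes with H3K18bu at a start site, 56.3% and 55.9% had a lower −log10 p. The CDKN2B start region was the only H3K18bu consensus region in its window, and CDKN2A had 1 other, chr9:21965286-21965750 downstream of the gene, which was its strongest by the lower −log10 p of both replicates, with pileups of 14 and 11.

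At CCND1 and CCND2 the consensus regions lay inside and past the genes. CCND1, a cyclin often amplified in cancers, had 5 H3K18bu and 7 H4K12bu consensus regions. Its densities, 1.501 and 2.10 per 10 kb, exceeded those of 96.8% and 99.02% of protein-coding genes, and its H4K12bu density was the highest of the 10 genes. Of these regions, 3 of 5 and 4 of 7 lay downstream, which left 2 and 3 in the gene itself. For both marks the strongest region lay 16413 to 17198 bases past the start site, downstream of CCND1 and within the neighbouring gene LTO1. The H3K18bu region, chr11:69657780-69658354, had pileups of 36 and 20, and the H4K12bu region, chr11:69657569-69658153, had 41 and 20. Of the 5 H3K18bu regions, 4 were also H4K12bu consensus regions. The H4K12bu pileups of CCND1 were 20 to 42 in replicate 1 and 11 to 20 in replicate 2, so replicate 1 was the higher library throughout.

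CCND2 and CCND3 differed in the mark with more regions. CCND2 had 5 H3K18bu consensus regions, with pileups of 16 to 30 and 13 to 19, and no H4K12bu consensus region. The strongest by the lower −log10 p, chr12:4289694-4289767 in an intron and within the overlapping gene ENSG00000285901, had pileups of 20 and 17. One of the 5 covered 644 bases of its 3′ UTR, and the region with the highest pileup in replicate 1, 30, lay at the start site of the neighbouring gene TIGAR. CCND3 had 3 H3K18bu and 9 H4K12bu consensus regions in a window of 135 kb, most of them in introns of transcripts that begin before the canonical start. The strongest H3K18bu region of CCND3, chr6:42030375-42031011, was the only one of its 3 with an H4K12bu consensus region, and its pileups were 19 and 15 for H3K18bu. At each of the other 2, H4K12bu was listed in 1 of 2 libraries. The strongest H4K12bu region of CCND3 was another intronic one, chr6:42039684-42040203, with pileups of 20 and 10.

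CDK4 had 2 H3K18bu consensus regions and no H4K12bu consensus region. The one at its start, chr12:57752130-57752757, covered 136 bases of 5′ UTR with pileups of 15 and 9. The other lay at the start of the neighbouring gene TSPAN31, with pileups of 10 and 10. CDK6, by far the longest of the genes with a window of 252 kb, had 23 H3K18bu and 13 H4K12bu consensus regions. Of these, 21 and 11 lay in introns, and none lay within 1 kb of the start. The same intronic stretch was strongest for both marks, chr7:92642018-92642558 for H3K18bu with pileups of 32 and 27 and chr7:92642027-92642577 for H4K12bu with 32 and 15. It lay 193996 bases or more past the start site. Per 10 kb, CDK6 had 0.914 H3K18bu regions, more than 84.1% of genes, and 0.517 H4K12bu regions, more than 54.3%.

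Across the 10 genes, 18 of the 50 H3K18bu regions (36%) overlapped an H4K12bu consensus region, against 40.2% of all H3K18bu regions in gene windows. In the other direction, 17 of 35 (48.6%) overlapped, against 39.8%. All 50 H3K18bu regions and 27 of the 35 H4K12bu regions had a q below 0.05 in both replicates. The folds ran from 3.28 to 8.002 for H3K18bu and from 2.70 to 6.36 for H4K12bu, and the median width was 418.5 bases and 348 bases.

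Other genes of the cell cycle, a list of 33 cyclins, CDKs, RB1 and E2F family members and their regulators, was counted in the same way. H3K18bu had a consensus region at 29 of the 33 (87.9%) and H4K12bu at 31 (93.9%), against 75.8% and 76.6% of all genes, and none of the 33 lacked both marks. At start sites, 16 (48.5%) had H3K18bu and 9 (27.3%) had H4K12bu, against 32.7% and 14.9%. TFDP2, a partner of E2F factors, had the most regions of both marks by number, 19 and 24, followed by MNAT1, a subunit of the CDK-activating kinase, with 9 and 23. RB1 itself had 6 H3K18bu and 18 H4K12bu regions, and E2F3 and E2F7 had 7 H3K18bu regions each. The windows of TFDP2, MNAT1 and RB1 are long, at 225, 255 and 316 kb. Per 10 kb their H3K18bu densities were 0.844, 0.353 and 0.190, against the median of 0.378 over all genes, and their H4K12bu densities were 1.07, 0.901 and 0.570, against 0.456.

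Markers of the labelled cell type were checked in CCD841. H3K18bu had a consensus region at 9 of 12 epithelial marker genes, but not at KRT18, CLDN7 or ESRP1, and H4K12bu at 6 of 12, against 75.8% and 76.6% of all genes. At 10 mesenchymal marker genes the counts were 10 and 9, above both of these shares. The epithelial counts were not above the share of all genes, so they do not set the labelled cell type apart. The epithelial list had 76 and 71 H3K18bu regions in the 2 libraries and 55 and 53 H4K12bu regions, with most consensus regions at KRT8, and the mesenchymal list had 99 and 120, and 133 and 144, with most at ZEB1 for H3K18bu and COL6A3 for H4K12bu. These sums are not scaled to the length of the windows. Scaled in this way, the median for H3K18bu was 0.694 consensus regions per 10 kb at epithelial genes and 0.684 at mesenchymal genes. For H4K12bu it was 0.0801 and 0.437. Over all genes the medians were 0.378 for H3K18bu and 0.456 for H4K12bu. Peaks were thus listed at markers of both kinds of cell, with the epithelial median for H4K12bu below those of the mesenchymal list and of all genes. The part of this in the values above was not tested.

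In mouse large intestine few regions were found in both replicates, at these genes and over the whole lists. The whole lists held 50645 to 96332 regions per Kbu library and 297745 to 299480 per Kac library. They gave 8319 consensus regions for H3K18bu, 9920 for H4K12bu, 43739 for H3K18ac and 42262 for H4K12ac. At the 10 genes, H3K18bu had 2 consensus regions, both at Cdk6, and H4K12bu had 10 at 5 genes (Cdkn1b, Cdkn2b, Ccnd2, Cdk4 and Cdk6). H3K18ac had 15 at 8 genes and H4K12ac had 21 at 6 genes. Over all protein-coding genes the shares with a consensus region were 20.5% for H3K18bu, 33.7% for H4K12bu, 58.7% for H3K18ac and 61.4% for H4K12ac. Cdkn1c and Cdkn2a had no consensus region of any of the 4 marks. In at least 1 replicate, the pileup was 1 at 2 of the 2 H3K18bu regions and 9 of the 10 H4K12bu regions. Places in mouse are given from start sites or gene ends in RefSeq (GRCm38.p6).

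The strongest mouse butyryl region of these genes lay inside Cdk6 (chromosome 5). H4K12bu had pileups of 3 and 3 at chr5:3527130-3527620, and it was the only one of the 10 H4K12bu regions with a q below 0.05 in both replicates. H3K18bu had pileups of 1 and 2 in the overlapping region chr5:3527239-3527668. H3K18ac had 2 and 8 and H4K12ac had 2 and 7 at the same place, so all 8 libraries listed it. It lay 186126 bases or more past the start site of Cdk6. The other H3K18bu region of Cdk6 lay 404 to 701 bases past its start, with pileups of 1 and 2.

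At the start of Cdkn2b, no mouse region passed a q of 0.05 in both replicates. H4K12bu had pileups of 1 and 1 from −149 to +61, H3K18ac had 3 and 4 from −149 to +152, and each of H3K18bu and H4K12ac was listed there in 1 of 2 libraries. At Ccnd3, H3K18ac had pileups of 6 and 6 from −212 to +254 and H4K12ac had 3 and 6 from −192 to +153, the first of which did not pass a q of 0.05. The mouse start of Ccnd3 thus had both acetyl marks, and each butyryl mark in 1 of 2 libraries.

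Cdkn1a had no butyryl consensus region in mouse. Its H3K18bu libraries listed 1 and 1 regions in the window, and its H4K12bu libraries 0 and 2. H3K18ac had a consensus region at chr17:29093795-29093921, with pileups of 3 and 4 and no q below 0.05, and H4K12ac had 1 upstream, from −8127 to −8054, with 2 and 2. RefSeq gives 2 start sites for Cdkn1a, 2790 bases apart, and the acetyl region began 26 and ended 152 bases past the second. H4K12bu replicate 2 listed chr17:29093666-29093844 across that second start, and H3K18bu replicate 1 listed chr17:29094021-29094187 beyond it, each with a pileup of 1 and in 1 of 2 libraries. The 120 bases before that start, chr17:29093649-29093768 on the plus strand of GRCm38.p6, are shown because the region begins close past that start, with GC boxes in capitals.
Cdkn1a: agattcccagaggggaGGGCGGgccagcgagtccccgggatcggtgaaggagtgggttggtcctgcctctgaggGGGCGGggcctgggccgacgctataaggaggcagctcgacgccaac

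The mouse stretch held GC boxes at −104 and −46, against −104, −94, −45 and −40 in human CDKN1A. Of mouse promoters, 46.3% held a GC box, counted over the first RefSeq entry of 17492 genes.

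Kbu and Kac libraries were then compared over the number of merged regions at each mouse gene, the 4 Kbu libraries against the 4 Kac libraries. For Cdkn1a the Kbu libraries had 1, 1, 0 and 2 regions (H3K18bu replicates 1 and 2, then H4K12bu replicates 1 and 2) and the Kac libraries 7, 6, 3 and 6 in the same order of residues. The groups did not overlap, with 1.0 ± 0.816 regions against 5.5 ± 1.73 (SD, n = 4), and the two-sided exact permutation test gave p = 0.0286, adjusted p = 0.0996 over all genes. For Cdk6 the Kbu libraries had 13, 6, 16 and 19 regions and the Kac libraries 44, 25, 36 and 44, again without overlap and with the same exact p. For Cdk4 they had 0, 0, 3 and 4 against 8, 7, 6 and 6. Cdkn1c (1, 0, 1 and 1 against 8, 3, 2 and 4) and Cdkn2a (0, 1, 0 and 1 against 3, 2, 2 and 2) completed the 5 of 10 genes in which each Kac library had more regions than each Kbu library. The same held for 28.7% of all 21887 genes, and the smallest p of this test is 0.0286. By the design text the 4 libraries of a group share 2 mice, so these p-values over libraries are too small. With 2 mice against 2, no two-sided exact permutation p below 0.333 is possible. If Kbu and Kac came from the same mice, the test also left out that pairing.

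Cdkn1b was the gene in which Kbu was not the lower group. Its Kbu libraries had 3, 4, 7 and 12 regions and its Kac libraries 4, 5, 4 and 7, or 6.5 ± 4.04 against 5.0 ± 1.41 (SD, n = 4; exact permutation p = 0.714, adjusted p = 0.830). The groups overlapped, and the highest value was that of H4K12bu replicate 2. At the remaining 4 genes (Cdkn2b, Ccnd1, Ccnd2 and Ccnd3) the Kac mean was higher but the groups overlapped, with exact permutation p from 0.0571 to 0.343. No gene of the 10, and none of all 21887, had an adjusted p below 0.05 in this permutation test, while 5 of the 10 had an unadjusted p below 0.05. The median difference, Kac minus Kbu, was 4.0 regions over the 10 genes and 3.75 over all genes.

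**Figure D4:**
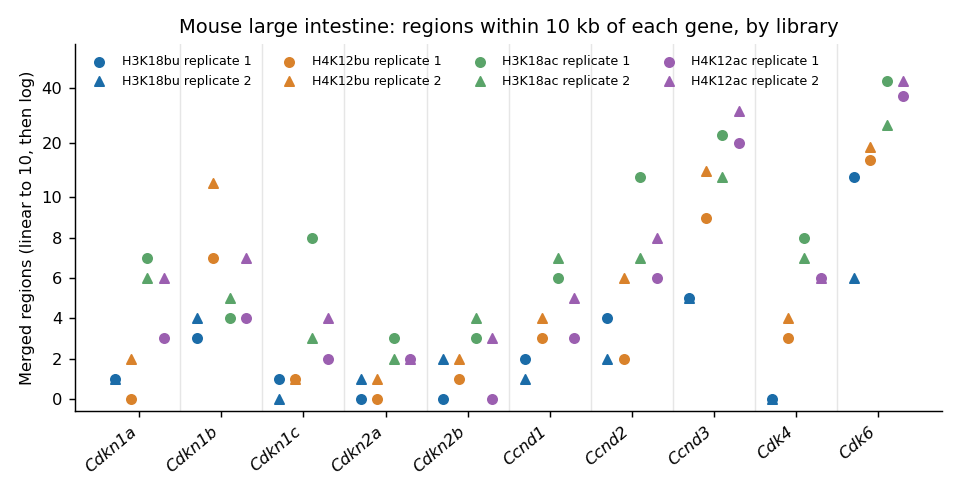
Merged regions within 10 kb of each gene (y axis, linear to 10 and logarithmic above) in each of the 8 mouse libraries; circles are replicate 1 and triangles replicate 2. The Kac libraries lie above all Kbu libraries at Cdkn1a, Cdkn1c, Cdkn2a, Cdk4 and Cdk6, and at Cdkn1b the highest point is H4K12bu replicate 2, with 12 regions.

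The lists differed in length, with 50675 to 96432 peaks in the Kbu libraries and 299623 to 299861 in the Kac libraries, where the limit of 300000 peaks ended the list. With the same number of strongest regions taken from every library, 50645, the Kac libraries were all above the Kbu libraries at 0 of the 10 genes, against 0.352% of all genes. With a q below 0.05 this held at 2 of the 10 genes, against 11.8% of all genes. With a pileup of at least 2, a limit that removes most peaks of the Kbu libraries and of 3 of the 4 Kac libraries, it held at 9, against 53.1%. Without H4K12ac replicate 1 it held at 8, against 36.0%. The members' count thus moved with the setting as the share of all genes did, and nothing is read from it about these genes.

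In the mouse tissue, H3K18bu had consensus regions at 10 of 12 epithelial marker genes, H4K12bu at 9, H3K18ac at 11 and H4K12ac at 7, with the most regions at Cdx1 for both butyryl marks. At 6 immune marker genes neither butyryl mark had one, and H3K18ac and H4K12ac each had them at 4, with most at Ptprc. At 6 smooth muscle marker genes the counts were 0 for H3K18bu, 3 for H4K12bu, 4 for H3K18ac and 5 for H4K12ac, and at 5 fibroblast genes 0, 1, 2 and 3. The immune list had 3 and 5 regions in the H3K18bu libraries and 4 and 9 in the H4K12bu libraries, against 45 and 50 for H3K18ac and 61 and 96 for H4K12ac. The epithelial list had 84 and 84, 51 and 96, 82 and 104, and 92 and 89 in the same order. Over all genes the shares with a consensus region were 20.5%, 33.7%, 58.7% and 61.4% in that order. The smooth muscle list had 5 and 2, 16 and 21, 63 and 41, and 43 and 59 regions, and the fibroblast list 1 and 5, 7 and 11, 37 and 48, and 73 and 25. Each Kac library was thus above each Kbu library for the immune, muscle and fibroblast lists, while the groups overlapped for the epithelial list. At single genes the same order held for 28.7% of all genes, and for 0.352% with the same number of strongest regions from every library. The marker sums were not repeated with lists of equal length, so nothing is read from them about which cells carried a mark. The part of other cells in the counts at the cell cycle genes was not tested.

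Of the 33 other cell cycle genes, 32 had a mouse gene of the same name. H3K18bu had a consensus region at 9 of them (28.1%), H4K12bu at 13 (40.6%), and H3K18ac and H4K12ac at 26 each (81.3%), against 20.5%, 33.7%, 58.7% and 61.4% of all genes.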

How the data were processed

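CUT&Tag libraries were processed by the authors in an ATAC-seq pipeline, and the submitters' processing notes name bcl2fastq 2.17.1, cutadapt 1.9.1, Bowtie2 2.3.1 and MACS2 2.1.0 with builds hg38 and mm10. That pipeline counts shifted, extended read ends, so regions mark where cuts gather beside a mark. The authors deposited 1 peak list per library, without a control library and without pooling replicates, at p 0.01 and with at most 300000 peaks. Each peak carries the deposited fold ratio over the local background of its library, (pileup + 1) / (background + 1), and the deposited −log10 p and −log10 q. The lists hold no counts, so the depth of each library is not known from them and no count model was fitted.

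Pileups were solved from fold and p for all peaks within 0.01 of the deposited −log10 p. Peaks were merged within a library, and consensus regions needed an overlap of at least 1 bp between replicates. Genes came from GENCODE 44 (GRCh38) and RefSeq GRCm38.p6 (mm10), sequences from GRCh38 and, for mouse, RefSeq. Mouse Kbu and Kac were compared by a two-sided exact permutation test over 70 assignments for all 21887 genes with Benjamini-Hochberg adjustment. Methods were tested on simulated data and against bedtools 2.31.1. The scripts ran in Python 3.11.15 (pandas 2.3.3, scipy 1.17.1).

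All 10 genes were named, the strongest region of a gene being that with the highest lower −log10 p of both replicates. Of the 33 other cell cycle genes, the 3 with the most regions for each mark, ties included, and any with neither mark were to be named. The genes, lists and tests were chosen with earlier results of these data known. Alternatives were q limits, a larger overlap, single replicates, equal numbers of regions, other windows and a minimum pileup. Colorectal cancer cells (SW480) were not analysed here.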

Additional observations from a re-analysis of the deposited data

Results flagged for a closer look

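Among 20 groups of 4 mouse libraries, 2 held a sample apart from the others. At Cdkn1c the 4 Kbu libraries had 1, 0, 1 and 1 regions, and H3K18bu replicate 2 stood apart with 0. At Cdkn2a the 4 Kac libraries had 3, 2, 2 and 2 regions, and H3K18ac replicate 1 stood apart with 3. Both gaps are a single region. With 3 tied whole numbers any gap meets the limit, so the usual chance rate of about 1 in 20 groups does not hold here and nothing is read from either value.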

How the results depend on the processing

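The number of genes with H3K18bu at a start site in CCD841 stayed at 5 under every alternative run, of which a q below 0.05 could remove nothing, since all H3K18bu regions already pass it. The 50 H3K18bu consensus regions became 38 to 50 under the alternatives that used both replicates, and 98 to 102 regions in a single replicate. The 35 H4K12bu consensus regions became 15 with a q below 0.01 and 97 to 119 in a single replicate. H4K12bu at start sites, 1 gene, became 0 with a q below 0.05, 0 with a q below 0.01, 0 with the same number of strongest regions and 2 to 3 in a single replicate. In mouse, H3K18bu consensus regions, 2, became 0 with a q below 0.05, 0 below 0.01, 1 with 50% of the shorter region as overlap, 0 at pileups of 2 or more and 22 to 29 in a single replicate. H4K12bu consensus regions, 10, became 1 with a q below 0.05, 0 below 0.01, 1 with the same number of strongest regions, 6 in the gene body, 1 at pileups of 2 or more and 42 to 65 in a single replicate. H3K18ac regions, 15, became 4 with a q below 0.05, 0 below 0.01 and 79 to 117 in a single replicate. H4K12ac regions, 21, became 2 with a q below 0.05, 0 below 0.01, 5 with the same number of strongest regions and 82 to 114 in a single replicate. A single replicate lists regions that the other need not share, so its count is higher by construction. For the other losses the cause was not tested. Of 77 values under alternatives, 38 lay within 1.5 times the reported count.

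The 5 mouse genes with each Kac above each Kbu library became 2 with a q below 0.05, 0 with the same number of strongest regions, 9 at pileups of 2 or more, 3 in the gene body (19.8% of all genes), and 5 to 8 without 1 library (30.0% to 42.2% of all genes). With replicate number as a block, 36 assignments allow no p under 0.0556, and 0 genes passed 0.05. Libraries of the same number did not deviate together (correlations of −0.0316 to 0.0456 across genes), and H3K18ac and H4K12ac deviated in opposite directions, at −0.488. With the numbers of H4K12ac crossed, a choice made after seeing the data, as were the pileup limit for consensus regions and the start sites of all transcripts, 0 genes passed. The pileups of the mouse Kbu libraries limit what can be read from presence or absence of a single region.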
